A study of Mus musculus with 6 samples.

Results

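The genes described here encode the subunits of Mediator and of RNA polymerase II. They were chosen by name: gene symbols made of Med and a number, with or without a closing l, and the symbols Polr2a to Polr2m. Of 24982 gene symbols in the count tables, 43 met this rule, 30 of Mediator and 13 of the polymerase. All 43 had enough reads to be tested. RNA-seq was done on KMWT1, a mouse glioma cell line, in 3 samples that received a control siRNA (samples 1, 2 and 3) and 3 that received an siRNA pool against YY1 (samples 4, 5 and 6), all taken 48 hours after transfection. YY1 is a DNA-binding zinc finger protein known both as an activator and as a repressor. All samples come from this 1 line, for which the labels name no genetic alteration. The labels do not state separate cultures within a group, and p-values therefore reflect only the spread among these samples, which may be technical.

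RNA polymerase II transcribes protein-coding genes. Its 2 large subunits form the catalytic cleft, and the tail of the largest one, Polr2a, is phosphorylated as transcription starts and proceeds. Some of its small subunits belong to it alone and others are shared with RNA polymerases I and III. Mediator is a large complex that links DNA-bound transcription factors to the polymerase at promoters. Its head and middle contact the polymerase, its tail is the main landing place of activators, Med14 joins the parts as a scaffold, and a detachable kinase module governs whether Mediator can bind the polymerase. The module given for Med19 and for Med27 to Med30 differs between published descriptions. The grouping used here is head (Med6, 8, 11, 17, 18, 20, 22, 28 and 30), middle (Med1, 4, 7, 9, 10, 19, 21, 26 and 31), tail (Med15, 16, 23, 24, 25, 27 and 29), scaffold (Med14) and kinase module (Med12, Med12l, Med13 and Med13l).

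Libraries held 15738457 to 20644057 counts in genes. YY1 siRNA sample 6 was the smallest, and its table is the only one of the 6 not marked as combined. Levels are given as CPM, the read count scaled to a library size corrected by TMM, and errors are SD with n = 3. Yy1 had 126.9, 128.1 and 126.5 CPM in the controls and 81.2, 77.6 and 78.6 CPM after YY1 siRNA. It fell to 62.3% of control (95% interval 56.5% to 68.6%, edgeR adjusted p 0.00154). In RNA from whole cultures, fewer cells with a transcript and less of it per cell cannot be told apart. Yy1 was the 1 gene of 12148 called over all genes (0.00823%). Of 6 glioma and neural stem markers, Sox2, Nes, Vim and Cd44 stood above 10 CPM, while Olig2 was at 0 and Gfap near it. Markers of microglia and macrophages summed to at most 0.318 CPM in a library. Those of neurons and oligodendrocytes summed to at most 6.54 and 3.08 CPM. The endothelial markers Pecam1 and Tek were near 0, while Cdh5 averaged 53.3 CPM in the controls and 47.4 CPM after YY1 siRNA.

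YY1 binds a short motif whose core is ATGGCG, and the stretches of member promoters that hold this core are all printed here, since YY1 was the target of the siRNA. RefSeq windows (GRCm38.p6, the assembly of mm10) reach from 250 bases before to 50 bases after a gene's start, and 36 of the 43 members matched by symbol. Med8, Med23, Med24, Med30, Polr2d, Polr2g and Polr2k are without a window. Both strands were searched for AANATGGCG and for ATGGCG, which is contained in it. AANATGGCG occurred in 2 of 42 member windows (4.76%), against 5.04% of the windows of tested genes and 2.38% of all windows. ATGGCG occurred in 8 of 42 (19%), against 15.1% and 8.93%. Each line gives 30 bases on the strand of the gene, 5′ to 3′, with the match in capitals, and CGCCAT is ATGGCG on the opposite strand.
Med16, chr10:79908889-79908918, minus strand: agggggccggcgcgggcctagagATGGCGg
Med27, chr2:29346830-29346859, plus strand: tgtgacagctgcAACATGGCGgacgtgctg
Med21, chr6:146642599-146642628, plus strand: tgcgtggtgAACATGGCGgatagactcact
Polr2l, chr7:141475109-141475138, minus strand: cacgccagacgcCGCCATgatcatcccggt
Med4, chr14:73509892-73509921, plus strand: tttgccctgtagATGGCGctagaactgtag
Med4, chr14:73510049-73510078, plus strand: gtcagcggggcgATGGCGgcttcttcaagt
Med13, chr11:86357556-86357585, minus strand: gaggcggcggtaATGGCGgatggtgggttg
Med20, chr17:47611507-47611536, plus strand: tgggtaccagagATGGCGctccctgtgggc
Med6, chr12:81595227-81595256, minus strand: ccgccttccctgCGCCATccttctgcgtgt
Med27 and Med21 hold the longer match AACATGGCG. Of the 9 matches, 5 lay over an annotated start codon (those of Med16, Med27, Med21 and Polr2l, and the second of Med4), which in the forward matches is the ATG of the core. The offset from the start site was -145, -66 and -236 bases for the first match of Med4, for Med20 and for Med6, and 12 to 43 bases for the others. The fitted log2 fold changes of the 8 genes lay on both sides of 0: -0.51 for Med16, -0.40 for Polr2l, -0.23 for Med27, 0.03 for Med4, 0.06 for Med13, 0.10 for Med6, 0.17 for Med20 and 0.52 for Med21. Med12l, with a log2 fold change of 0.46, has no match. A match is a description of letters and not a measured site.

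No Mediator or polymerase subunit gene passed the test over all genes. EdgeR's quasi-likelihood test called 0 of 43 at an adjusted p under 0.05, and DESeq2 (0.149% of all genes called) and limma-voom called 0 as well. At an unadjusted p under 0.05 there was 1 of 43 (2.33%), Med16, against 10.8% of all genes tested. Without YY1 siRNA sample 4, 5 Mediator genes (Med16, Med20, Med21, Med27 and Med29) had such a p (11.6% of the 43, against 19.1% of all genes). With offsets for exon length and GC in the fit it was 3 Mediator and 3 polymerase genes (13.95% of the 43, against 13.6% of all genes). The fitted log2 fold change was above 0 for 26 members and below 0 for 17, with a median of 0.034, beside 50.2% above 0 and a median of 0.00 for all genes. The YY1 siRNA group lay wholly below the controls for 4 members, Med16, Med27, Med19 and Polr2b (9.30%, against 8.91% of all genes). It lay wholly above them for 0 members (7.36% of all genes). For 36 of the 43 (83.7%) the 95% interval of the change stayed inside a 1.5-fold rise or decline, against 82.2% of all genes. It reached further for Med12l, Med16, Med21, Med29, Med30, Med31 and Polr2l.

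**Figure D1:**
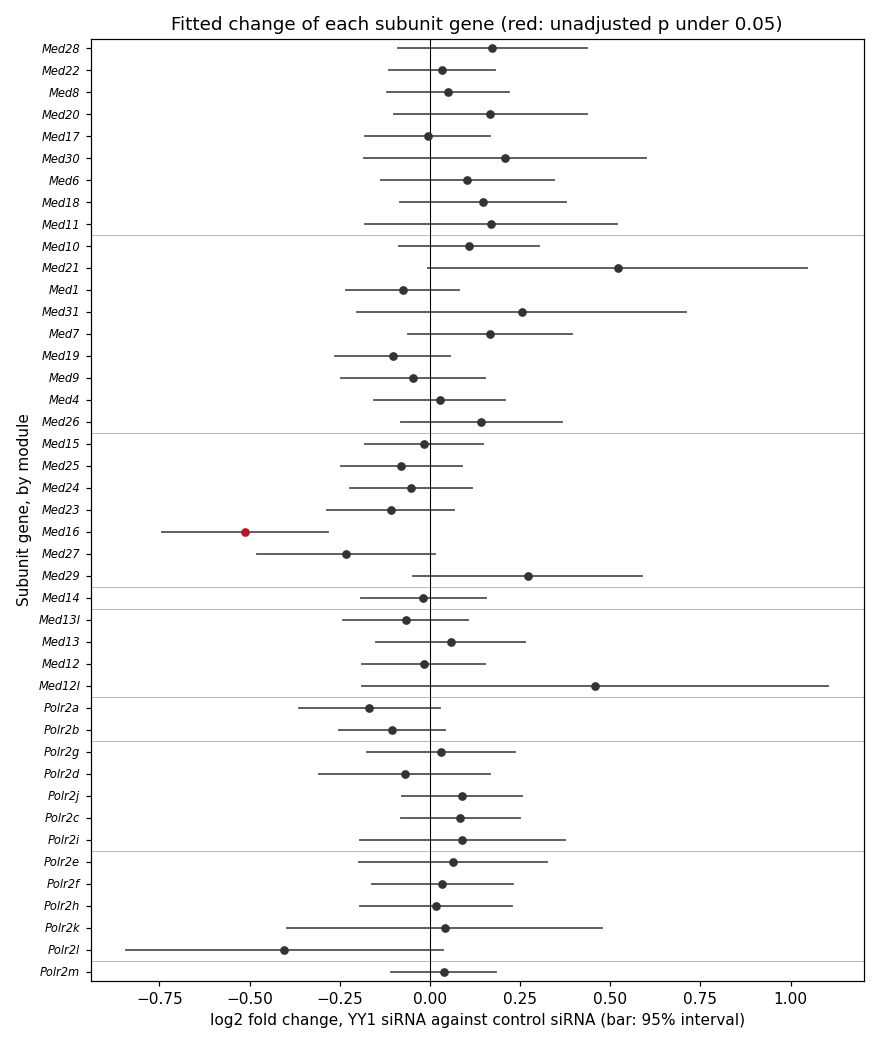
Fitted log2 fold change of each of the 43 genes, YY1 siRNA against control siRNA (x axis), with its 95% interval (bars), ordered by module from head to Polr2m (y axis). The interval of Med16, from -0.74 to -0.28, is the only one that does not reach 0, and that of Med21 starts at -0.0041.

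Within the tail of Mediator, Med16 was the member with the largest difference. Med16 is a tail subunit that takes part in activator-dependent transcription. It stood at 27.1, 22.9 and 22.4 CPM in controls 1, 2 and 3, and at 18.1, 17.8 and 14.8 CPM in YY1 siRNA samples 4, 5 and 6. The groups did not overlap, with control sample 1 highest and YY1 siRNA sample 6 lowest. The level with YY1 siRNA was 0.701 of control (95% interval 0.598 to 0.823, log2 fold change -0.51, SE 0.11), with an edgeR adjusted p of 0.148. Over the alternatives that made no call, the adjusted p ran from 0.0667 (DESeq2) to 0.574 (edgeR without control sample 1). Without the filter on low counts, edgeR gave Med16 an adjusted p of 0.00822. Med16 was then the 1 member of 43 called, beside 83 of 17048 genes over all genes. The log2 fold change was -0.435 without YY1 siRNA sample 6 and -0.42 without control sample 1, so the direction did not rest on either library. The gene lies on the minus strand of chromosome 10 from 79894708 to 79908923 (mm10, ENSMUSG00000013833.15), where no other annotated gene overlaps it.

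The other 6 tail genes stayed closer to their control levels. Med27 is counted here with the tail. It had 10.1, 10.2 and 10.6 CPM in the controls and 9.39, 9.35 and 7.44 CPM after YY1 siRNA. The groups did not overlap, and sample 6 was lowest by a wide step (0.851 of control, 95% interval 0.717 to 1.01, edgeR adjusted p 0.475). The log2 fold change was -0.23, and -0.14 without that sample. Med23, a target of growth factor signalling to Mediator, had values of 37.2, 34.5 and 35.9 CPM in the controls and 31.3, 36.3 and 32.2 CPM after YY1 siRNA, which overlapped. Med15, Med24 and Med25, which bind activators or hold the tail together, had log2 fold changes of -0.02, -0.05 and -0.08. Med29, the tail gene with the fewest counts, had a fitted value above 0, with 5.96 ± 0.772 CPM in the controls and 7.26 ± 1.14 CPM after YY1 siRNA (log2 fold change 0.27, SE 0.15, edgeR adjusted p 0.507). In all, 6 of 7 tail genes had a fitted value below 0, beside 6048 of 12148 for all genes tested. For the tail it was 5 of 7 without YY1 siRNA sample 6, and 4 of 7 when the fit had offsets for length and GC.

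In the middle of Mediator, Med21 had the highest fitted value of all members, and it moved with single libraries. Med21 forms a hinge with Med7 at the polymerase-facing side of the complex. Controls 1, 2 and 3 had 57.4, 62.3 and 80.5 CPM, and YY1 siRNA samples 4, 5 and 6 had 75.0, 82.6 and 130 CPM. Sample 6 stood far above the rest, and control sample 3 lay above YY1 siRNA sample 4, so the groups overlapped. The fold change was 1.44 (95% interval 0.997 to 2.06, log2 0.52, edgeR adjusted p 0.463). The log2 value was 0.23 without sample 6 and 0.68 without control sample 3. Under some alternatives, among them limma-voom and edgeR with library size alone, its unadjusted p was under 0.05. Its lowest adjusted p was 0.192 (edgeR with length and GC offsets). Med21 shares sequence with other genes. Its longest annotated transcript holds a stretch of 435 bases, in reverse orientation, that is 97.5% identical to Rps26, a ribosomal protein gene. The processed pseudogene Gm6654 lies over it on the other strand. Rps26 stood at 567, 627 and 570 CPM in the controls and 676, 559 and 579 CPM after YY1 siRNA. Sample 4 was highest for Rps26 and the groups overlapped. How reads of the shared stretch were assigned was not tested. Gm6654 was listed at 0 in 5 libraries and at 0.0524 CPM in YY1 siRNA sample 4.

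Other small middle subunits showed the same library standing out. Med31 is a conserved subunit next to Med7. It had 39.4, 39.6 and 50.4 CPM in the controls and 41.9, 45.1 and 67.8 CPM after YY1 siRNA. Its log2 fold change was 0.25 (SE 0.19), and 0.01 without sample 6. Med7 stood at 42.1 to 44.0 CPM in the controls and at 45.1, 42.1 and 57.5 CPM after YY1 siRNA. Med10 stood at 193 ± 11.9 and 208 ± 24.8 CPM, but 92.8% of its annotated exon bases are shared with Gm26819 on the other strand, so its level is uncertain. Not every middle gene did this. Med1, through which nuclear receptors contact Mediator, stood at 80.7 ± 2.00 and 76.6 ± 5.43 CPM. Med26, which helps recruit elongation factors, stood at 10.48 ± 0.634 and 11.5 ± 0.894 CPM. Med19 had 30.1, 31.1 and 30.7 CPM in the controls and 28.9, 27.98 and 28.7 CPM after YY1 siRNA. These groups did not overlap, and the level was 0.931 of control (95% interval 0.834 to 1.04, edgeR adjusted p 0.595).

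In the main fit the head genes had the highest median change of the modules, but it moved with single samples and with the fit. Of 9 head genes, 8 had a fitted value above 0 (50.2% of all genes) and 0 had an unadjusted p under 0.05 (10.8% of all genes), with a median log2 fold change of 0.15. Without YY1 siRNA sample 6 the median was 0.03, with 7 of 9 above 0. Without control sample 2 it was 0.07, below the 0.09 of the middle genes. In a fit with offsets for length and GC it was 0.06, with 7 of 9 above 0. Sample 6 was the highest of the 6 libraries for 6 of the 9, against 27.1% of all genes. Med28 had 70.7, 76.6 and 81.2 CPM in the controls and 76.5, 77.2 and 104 CPM after YY1 siRNA. Med30 had 25.4, 27.4 and 35.6 CPM in the controls and 29.7, 30.5 and 42.4 CPM after YY1 siRNA. In both genes control sample 3 was the highest control and sample 6 the highest of all. Med17, the central subunit of the head, stayed between 29.97 and 34.2 CPM in all libraries.

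Med14 and the abundant genes of the kinase module (Med12, Med13 and Med13l) had means close to those of the controls, and in the module the YY1 siRNA samples spread widely. Med14 stood at 180 ± 13.9 CPM in the controls and 178 ± 12.2 CPM after YY1 siRNA. Med13 anchors the kinase to the rest of Mediator. It had 114, 109 and 105 CPM in the controls and 98.1, 131 and 112 CPM after YY1 siRNA. Sample 4 was the lowest of the 6 libraries and sample 5 the highest, on either side of all controls. Med12, which activates the kinase, did the same at 61.8, 59.6 and 59.7 CPM in the controls and 53.8, 65.0 and 60.3 CPM after YY1 siRNA. So did Med13l, with 114 and 139 CPM in samples 4 and 5 against 127 to 133 CPM in controls. The SD of Med13 was 4.47 CPM in the controls and 16.4 CPM after YY1 siRNA. Of the paralogs in the module, Med12 and Med12l were expressed unequally, while Med13 and Med13l had similar levels. Per kb of exon in control samples, Med13 and Med13l stood close, at 10.1 and 8.48 CPM per kb, while Med12 had 7.84 and Med12l 0.0765. Med12l had only 0.673 to 1.75 CPM in a library, and its log2 fold change of 0.46 carried an SE of 0.30 (95% interval -0.19 to 1.11). The partners of Med12 and Med13 in the module lie outside the rule. The kinases Cdk8 (43.8 ± 2.603 and 42.8 ± 1.75 CPM) and Cdk19 (52.8 ± 2.88 and 54.9 ± 1.67 CPM) and their cyclin Ccnc (26.1 ± 2.05 and 29.6 ± 3.23 CPM) had unadjusted p-values of 0.688, 0.462 and 0.0834.

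**Figure D2:**
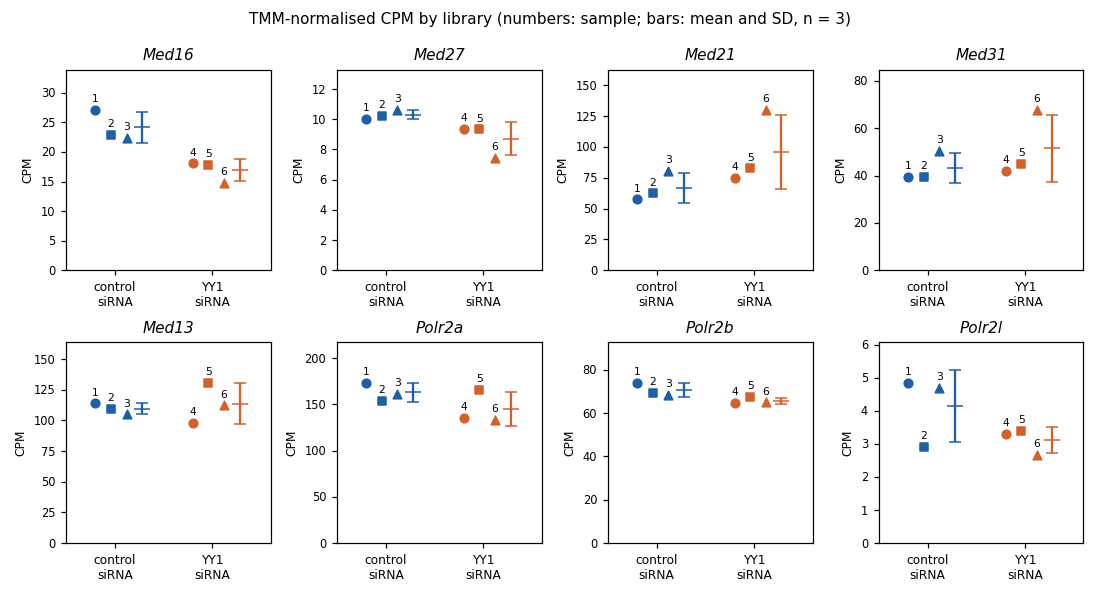
TMM-normalised CPM (y axis, starting at 0) of 8 genes in 3 control siRNA samples (blue) and 3 YY1 siRNA samples (orange), with sample numbers beside the points and mean and SD (n = 3) at the right of each group. Med16, Med27 and Polr2b show groups that do not overlap, sample 6 stands out for Med21 (130 CPM) and Med31 (67.8 CPM), and samples 4 and 5 lie on either side of the controls for Med13.

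Both large polymerase subunits had fitted values below 0. Polr2a, the catalytic subunit with the repeated tail, had 173.5, 154 and 161 CPM in the controls and 136, 166 and 133 CPM after YY1 siRNA. Samples 4 and 6 lay below all controls and sample 5 among them, at 0.890 of control (95% interval 0.777 to 1.02, log2 fold change -0.17, edgeR adjusted p 0.506). Without sample 5 the log2 value was -0.28 (edgeR adjusted p 0.354). Polr2b, the second large subunit, had 74.1, 69.5 and 68.4 CPM in the controls and 64.8, 67.4 and 65.0 CPM after YY1 siRNA. Its groups did not overlap, but lay close, at 0.931 of control (95% interval 0.840 to 1.03, edgeR adjusted p 0.563).

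The small polymerase subunits other than Polr2l stayed near their control means. The direction of the 10, counted with Polr2l, depended on single libraries and on the fit. Of the 5 that belong to this polymerase alone and the 5 shared with polymerases I and III, 8 of 10 had a fitted value above 0, beside 50.2% of all genes. Without YY1 siRNA sample 6 this was 2 of 10, with a median log2 fold change of -0.09 in place of 0.04. It was 5 of 10 without control sample 1 (median 0.0031) and 5 of 10 in a fit with offsets for length and GC. Leaving out any other single sample gave 7 to 9 of 10. Polr2e, the most abundant shared subunit, had 107, 115 and 122 CPM in the controls and 110, 105 and 145.5 CPM after YY1 siRNA. Its log2 fold change was 0.06, and -0.10 without sample 6. Polr2g and Polr2d, which form the stalk of the enzyme, had 54.2 ± 3.69 and 41.7 ± 4.11 CPM in the controls and 55.4 ± 7.22 and 39.8 ± 5.83 CPM after YY1 siRNA. Polr2c, part of the platform on which the enzyme assembles, had 30.9 ± 1.16 and 32.8 ± 1.45 CPM. For Polr2i and Polr2j the fitted log2 fold change was 0.09 each. Among the other shared subunits, Polr2f, Polr2h and Polr2k had log2 fold changes of 0.03, 0.02 and 0.04.

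Polr2l stood apart from the other small subunits. It had 4.86, 2.91 and 4.71 CPM in the controls and 3.303, 3.40 and 2.68 CPM after YY1 siRNA. Control sample 2 lay below YY1 siRNA samples 4 and 5, so the groups overlapped (0.756 of control, 95% interval 0.557 to 1.02, edgeR adjusted p 0.483). At 41 to 101 counts per library it rests on few reads. The processed pseudogenes Gm10774 and Gm13015 are 99.5% and 97.1% identical to 204 bases of it, which makes its level uncertain. A transcript of Usp50 is 99.7% identical to 382 bases of it. Usp50 stood at 0.0962 CPM in control sample 1 and at 0 in the other libraries. Similar copies exist for Polr2c (Gm11993, 97.2% over 688 bases), Polr2h (Gm7511, 98.0% over 445 bases) and Polr2k (Gm46136, 96.0% over 303 bases). Of the copies named here, only Usp50 is among the gene symbols in the count tables, and how their reads were assigned was not tested. Polr2m encodes GDOWN1, a protein bound to a part of the polymerase pool rather than a core subunit. Its controls varied least of the 43 genes relative to their mean, at 198 ± 0.863 CPM, against 203 ± 8.94 CPM after YY1 siRNA.

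Levels between genes can be compared only per length, and here they are CPM per kb of annotated exon in control siRNA samples. The median was 22.4 for the 13 polymerase genes and 8.85 for the 30 Mediator genes. Polr2m was highest at 81.7, followed by Polr2g (43.5), Polr2e (43.0) and Polr2d (41.1), and Polr2l was lowest of the polymerase at 2.52. In Mediator, Med10 (42.9), Med31 (24.9) and Med30 (24.9) led, and Med12l was lowest. By module the medians were 14.9 for the middle, 11.2 for the head, 8.16 for the kinase module and 5.36 for the tail, with Med14 at 20.5. Tail genes spanned 3.11 to 7.37, and so all lay below the medians of the head and the middle. Annotated exons can hold sequence that these cells do not use, which lowers a value per kb. Exon bases are shared with another annotated gene in 22 of 43 members, and for 5 of them (Med10, Med20, Med31, Polr2i and Med7) this covers over 20% of the exon bases. No source used here gives the strand setting of the counts, and reads of such pairs may not have been told apart. For Med10, Med20 and Med7, the partners Gm26819, Kpna2-ps and 2310031A07Rik are not among the gene symbols in the count tables.

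**Figure D3:**
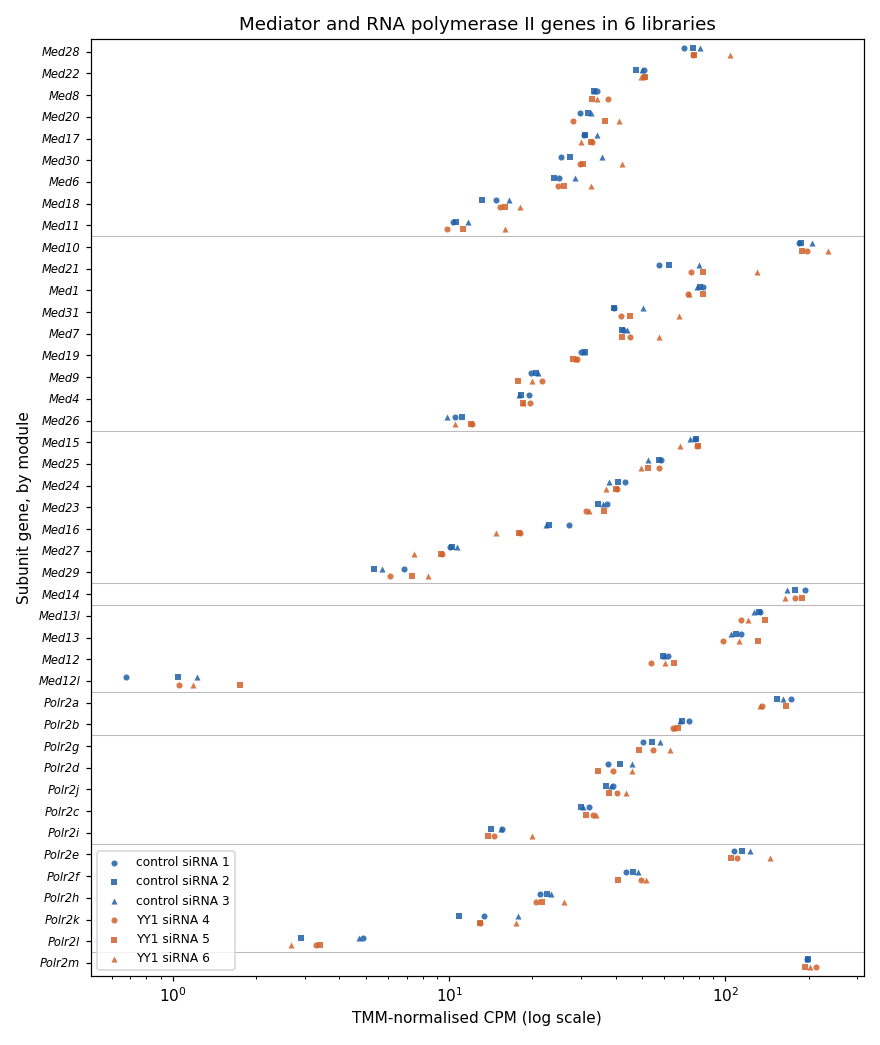
TMM-normalised CPM (x axis, log scale) of all 43 genes in the 6 libraries, with control siRNA samples in blue and YY1 siRNA samples in orange, ordered by module and then by level (y axis). The groups overlap for all genes but Med16, Med27, Med19 and Polr2b, and YY1 siRNA sample 6 (orange triangles) is the highest library for 19 genes.

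Differences of single libraries from the control mean went along with exon length among the members, in both groups. YY1 siRNA sample 6 was the highest of the 6 libraries for 19 of 43 members (44.2%), against 27.1% of all genes tested. Across the 43 genes, Spearman's rho between exon length and the log2 difference from the control mean was -0.50 in YY1 siRNA sample 6, 0.41 in sample 5 and -0.14 in sample 4. In control samples 1, 2 and 3 it was 0.31, 0.41 and -0.53. Shorter members were thus higher in control sample 3 and in YY1 siRNA sample 6. Longer ones were higher in control samples 1 and 2 and in YY1 siRNA sample 5. The control differences are taken from the controls' own mean, so the rho values of the control samples depend on one another. Over 12058 tested genes with a length the values were 0.19, 0.06, -0.20, -0.22, 0.16 and -0.19 in samples 1 to 6. Genes of 1 library share its preparation and depth and are not independent replicates. Counts without an assigned gene made up 10.7% and 11.3% of samples 5 and 6 against 7.99% to 9.03% in controls and 7.87% in sample 4. The part of this share in these differences was not tested.

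**Figure D4:**
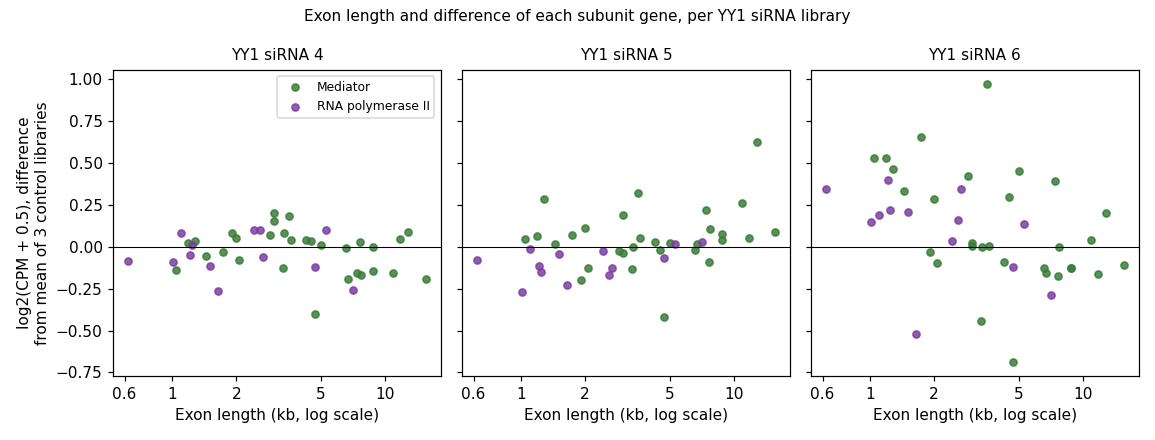
Exon length (x axis, kb, log scale) against the difference of log2(CPM + 0.5) from the mean of the 3 control siRNA samples (y axis) for 30 Mediator (green) and 13 polymerase genes (purple), in each YY1 siRNA sample. Short genes lie mostly above 0 in sample 6 (rho -0.50) and long genes above 0 in sample 5 (rho 0.41).

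Of 95 further genes of the transcription machinery, 0 passed over all genes with edgeR or with DESeq2, and 16 had an unadjusted p under 0.05 (16.8%, against 10.8% of all genes), 7 higher and 9 lower. Their median log2 fold change was -0.03. General transcription factors gave 3 of 31 at that p, with the TFIID subunit Taf5 at 8.94 ± 1.15 and 11.4 ± 1.22 CPM and the CTD kinase Cdk7 at 47.8 ± 3.05 and 57.2 ± 8.48 CPM in the controls and after YY1 siRNA. Pausing and elongation factors gave 3 of 27, all lower. Among them, the pausing factor subunit Nelfcd had 33.5, 34.1 and 32.8 CPM in the controls and 28.5, 27.3 and 25.1 CPM after YY1 siRNA (log2 fold change -0.31, SE 0.08, edgeR adjusted p 0.217). Hexim1, which holds the elongation kinase inactive, had 35.9 ± 1.54 and 28.6 ± 3.46 CPM (edgeR adjusted p 0.263). Assembly factors and tail phosphatases gave 6 of 16, 3 higher and 3 lower, with the phosphatase Ctdspl at 11.2 ± 0.205 and 13.6 ± 0.513 CPM and the assembly factor Gpn2 at 8.33 ± 0.944 and 6.59 ± 0.791 CPM. Subunits of polymerases I and III alone gave 4 of 18, 2 higher and 2 lower, with Cd3eap at 13.4 ± 1.22 and 10.4 ± 0.690 CPM. The 3 kinase module partners gave 0.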

How the data were processed

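The authors deposited raw counts of reads by gene symbol, 1 table for each sample, and the values are whole numbers without normalization. STAR 2.6.1a and edgeR 3.30.0 with build mm10 were used, per the submitters' processing notes. For the counting program, annotation and strand setting: not given in the sources used here. The 2 rows that name no gene (no_feature at 7.87% to 11.3% of all counts and ambiguous at 1.01% to 1.15%) entered neither library sizes nor tests. At the depth of the libraries, 3 counts equal 0.144 to 0.196 CPM.

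Groups were compared by the quasi-likelihood test (glmQLFTest) in edgeR 4.0.16 under R 4.3.3, fitted to the deposited counts of all genes, two-sided, with filterByExpr, TMM and robust dispersion. P-values were adjusted by the Benjamini-Hochberg method over 12148 genes, with a threshold of 0.05. Intervals are 95% intervals of this fit. DESeq2 1.42.0, limma-voom (limma 3.58.1), RLE, library size alone, other filters, thinned counts, length and GC offsets (mgcv 1.9.3) and leaving out each sample were alternatives. The steps were tested on simulated counts in which 200 of 12148 genes were changed. At 1.25-fold, 1.5-fold and 2-fold, 9.6%, 84% and 94.4% of them were called, with 7, 14 and 17 false calls. Most changes of 1.25-fold were thus missed. Libraries of a group differed by more than sampling noise, with a chi-square over its degrees of freedom of 3.04 to 30.9. Exon lengths and overlaps are those of GENCODE M21 (mm10), which held 98.1% of the symbols, and shared sequence from a search of its transcripts.

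The members and lists were chosen with earlier results of these data known. Genes described singly were named by rule (an unadjusted p under 0.05, the 4 largest fitted values in each direction, the highest and lowest level per kb of each complex, set paralogs and roles, and up to 2 genes of smallest p from each machinery list), and Med7, Med15, Med17, Med19, Med24, Med25, Med28, Med30, Cdk8 and the small polymerase subunits other than Polr2l were added after their values were seen. A gene that the rule names from the machinery lists is not reported here.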

Additional observations from a re-analysis of the deposited data

Results flagged for a closer look

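Reads outside the gene counts lay above the level of all controls in some YY1 siRNA samples. Counts without an assigned gene made up 10.7% of sample 5 and 11.3% of sample 6, against at most 9.03% in the controls. Ambiguous counts made up 1.15% of sample 6, against at most 1.09% in the controls.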

How the results depend on the processing

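The number of genes called over all genes, 1 in the main test, was 7 with library size alone, 83 without a filter on low counts, 19 with DESeq2, 12 when offsets for length and GC content were used, 2 after thinning, and 1 to 41 when single samples were left out (41 when YY1 siRNA sample 4 was, 3 for sample 6 and 2 for control sample 3). The cause was not tested. Mediator genes called numbered 1 (Med16) without the filter and 0 under the other alternatives. Polymerase and machinery genes called were 0 throughout. Yy1 passed under each alternative, at log2 fold changes between -0.71 and -0.65. The median of the polymerase genes was -0.09 without YY1 siRNA sample 6 and 0.11 without YY1 siRNA sample 5. It was -0.0034 without control sample 1 and -0.035 with length and GC offsets. No paired analysis was possible because the 2 groups have no number in common. Some uncalled log2 values changed sign. Med17 had 0.00121 with RLE and 0.00173 with the stricter filter. Polr2h had -0.00561 with library size alone, -0.00495 with thinned counts and -0.035 with length and GC offsets. With the same offsets Med24 had 0.0068, Med6 -0.029, Med4 -0.0069, Polr2k -0.25, Med15 0.0015, Polr2g -0.081 and Med12 0.039. Over the samples left out, sign changes gave ranges of -0.00081 to 0.17 for Med10, -0.051 to 0.32 for Med11, -0.085 to 0.060 for Med12, -0.056 to 0.16 for Med13, -0.070 to 0.041 for Med14, -0.053 to 0.043 for Med15, -0.032 to 0.044 for Med17, -0.029 to 0.19 for Med6, -0.00065 to 0.094 for Med8 and -0.11 to 0.029 for Med9. For the polymerase they were -0.19 to 0.025 for Polr2d, -0.10 to 0.15 for Polr2e, -0.036 to 0.13 for Polr2f, -0.075 to 0.12 for Polr2g, -0.089 to 0.089 for Polr2h, -0.093 to 0.19 for Polr2i and -0.12 to 0.25 for Polr2k. At an unadjusted p under 0.05, all genes numbered 1316 in the main test, 942 to 1644 under the other settings and 661 to 2335 when single samples were left out (781 when control sample 2 was). Mediator genes numbered 1 to 3 and 1 to 5, and polymerase genes 0 to 3 and 0 to 1. As shares, the 43 members stood above all genes with length and GC offsets (13.95% against 13.63%). They also did so without control sample 1 (6.977% against 5.403%). Under every other alternative their share was below that of all genes, with 11.63% against 19.08% without YY1 siRNA sample 4. Few counts limit Med12l, Polr2l, Med29 and Med27, the 4 members under 10 CPM.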
